A study of Mus musculus with 33 samples.

Results

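Snai1, Snai2, Twist1, Twist2, Zeb1, Zeb2, Prrx1, Foxc1 and Foxc2 are genes for DNA-binding proteins known from the mesenchyme around the eye and from epithelial to mesenchymal transition. They were taken by gene symbol from the deposited count tables, 9 of 47729 genes, and all 9 passed the filter on low counts. RNA was sequenced from retinal progenitor cells of C57BL/6J mouse retina at embryonic day 14, in 33 libraries that form 11 groups of 3. At day 0 the cells were untreated, cone primed with COCO or rod primed with taurine and retinoic acid, and at days 5, 12, 21 and 35 they were cone induced with COCO or rod induced with taurine and retinoic acid. The protein COCO is released by cells and blocks the BMP, Wnt and TGF-beta pathways, while retinoic acid and taurine are used to favour rods. The series asked how progenitors differ between these conditions over time. Nothing in the labels says that replicates came from separate cultures or animals, so p-values measure the spread between these libraries only.

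Periocular mesenchyme is loose tissue of neural crest and mesoderm origin that surrounds the optic cup and forms the cornea, the sclera and the drainage structures of the eye. Foxc1, Foxc2 and Prrx1 act in that tissue and in craniofacial mesenchyme. The Snail, Twist and Zeb proteins bind E-boxes (CANNTG) in DNA, repress epithelial genes such as Cdh1 (E-cadherin), and are known for turning attached epithelial cells into migrating mesenchymal cells, while Zeb1 and Zeb2 are also expressed in neural progenitors.

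Genes received 7511837 to 19166442 counts per library, and 18150 of the 32488 genes with any count were tested. Levels are given in CPM, which are counts relative to the library's total, scaled by TMM. A count of 0 allows up to 3 counts, or 0.174 to 0.407 CPM. In untreated cells all 10 retinal progenitor markers had counts, with a summed level of 1140 to 1268 CPM. Calls are made by edgeR's quasi-likelihood test at p under 0.05 after Benjamini-Hochberg adjustment over all genes tested, and fold changes are log2 ± SE. In bulk RNA, fewer cells of a type and less RNA per cell cannot be told apart.

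The promoters of 4 of the genes are shown because these genes differed most often between cone and rod cells (Twist1, Prrx1, Foxc1) or hold the E-box that Snail, Twist and Zeb proteins bind (Snai1). Each line is the 250 bases before the RefSeq start on GRCm38.p6, read on the gene's own strand from 5′ to 3′. Capitals mark, on either strand, an E-box (CANNTG), a TATA box in the form TATAAA, or a CCAAT box.
Snai1 (chr2:167537945-167538194, plus strand): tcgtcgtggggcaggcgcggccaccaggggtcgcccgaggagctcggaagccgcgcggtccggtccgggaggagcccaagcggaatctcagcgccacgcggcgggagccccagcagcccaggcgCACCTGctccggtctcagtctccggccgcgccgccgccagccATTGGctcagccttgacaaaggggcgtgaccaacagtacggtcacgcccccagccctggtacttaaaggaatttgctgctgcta
Twist1 (chr12:33957421-33957670, plus strand): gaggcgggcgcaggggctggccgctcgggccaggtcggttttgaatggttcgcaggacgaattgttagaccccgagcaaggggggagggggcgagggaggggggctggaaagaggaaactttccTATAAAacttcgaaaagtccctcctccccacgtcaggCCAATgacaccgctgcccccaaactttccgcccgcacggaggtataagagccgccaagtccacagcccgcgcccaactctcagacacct
Prrx1 (chr1:163313651-163313900, minus strand): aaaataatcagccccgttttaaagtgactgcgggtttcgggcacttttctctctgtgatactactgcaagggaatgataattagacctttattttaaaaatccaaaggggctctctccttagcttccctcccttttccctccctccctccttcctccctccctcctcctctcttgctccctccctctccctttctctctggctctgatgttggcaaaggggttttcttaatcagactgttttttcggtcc
Foxc1 (chr13:31806396-31806645, plus strand): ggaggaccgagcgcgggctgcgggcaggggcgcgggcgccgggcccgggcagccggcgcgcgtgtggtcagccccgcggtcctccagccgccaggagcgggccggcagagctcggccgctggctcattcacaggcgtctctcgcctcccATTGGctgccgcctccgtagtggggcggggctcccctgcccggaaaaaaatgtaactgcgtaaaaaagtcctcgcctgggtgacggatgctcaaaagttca
The Snai1 window held 1 E-box, CACCTG, 126 bases before the start, and an inverted CCAAT box, ATTGG, 84 bases before it. The Twist1 window held TATAAA 126 bases and CCAAT 89 bases before the start. In Foxc1 the inverted CCAAT box lay 101 bases before the start, and the Prrx1 window held none of the 3 motifs. Among 32851 RefSeq promoters of the same length, 66.22% held CANNTG, 17.22% held its form CACCTG, 12.37% held TATAAA and 33.85% held CCAAT. RefSeq promoter entries were found for 6 of the 9 genes. Of those not shown, the Twist2 window held 1 CCAAT box and the first of 4 listed Zeb2 windows held 2. A match describes letters in this window only.

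All 9 are protein-coding. On GRCm38, by the positions in the files, Snai1 lies at chr2:167538195-167542814, Snai2 at chr16:14705852-14709395, Twist1 at chr12:33957671-33959817 and Twist2 at chr1:91801461-91848028. Zeb2 lies at chr2:44983632-45117395, Prrx1 at chr1:163245119-163313710, Foxc1 at chr13:31806691-31810643 and Foxc2 at chr8:121116171-121118895. Positions equal those of GENCODE release M21 for 6 of the 9, and the ends of Snai2, Twist1 and Foxc1 differ. Antisense transcripts overlap exons of Zeb2 (Zeb2os, over 653 bases), of Zeb1 (Gm10125, over 198 bases) and of Twist2 (Gm29100, over 1477 bases). These held at most 37, 72 and 2 counts in any library. The strand setting of the counting is not given in the sources used here, so reads of these pairs may be mixed.

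At day 0 the genes fell into a detected and a nearly undetected set. Per kb of exon, with all annotated exons of a gene joined, untreated cells held 13.9 CPM per kb of Zeb2 and 8.31 of Zeb1. Snai2 stood at 0.774 CPM per kb and Foxc1 at 0.286, and the other five stood below 0.07. Zeb2 and Zeb1 also ranked highest in both primed groups. By day 35 the order had changed in cone cells, where Prrx1 stood at 32.8 CPM per kb and Twist1 at 21.9, ahead of Zeb2 (12.2) and Zeb1 (11.9), then Foxc1 (8.45), Snai2 (6.48) and Snai1 (2.44). In rod cells at day 35, Zeb2 (14.8) and Zeb1 (14.3) were highest by these lengths, followed by Foxc1 (11.5), Prrx1 (9.21) and Twist1 (5.89). The Foxc1 length, 5844 bases, is that of GENCODE M21, where the gene spans chr13:31806633-31812476, beyond its ends in the files. With a shorter Foxc1 its levels per kb would be higher, so its place in the order is not certain in either culture. The joined exons measure 19942 bases for Zeb2, 10266 for Zeb1, 11066 for Prrx1 and 1628 for Twist1. Which transcripts were present was not tested, and shorter ones would raise a level per kb. In CPM, cone cells at day 35 held 362 of Prrx1, 244 of Zeb2, 122 of Zeb1 and 35.6 of Twist1. The place of Twist1 therefore depends on the lengths used.

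**Figure D1:**
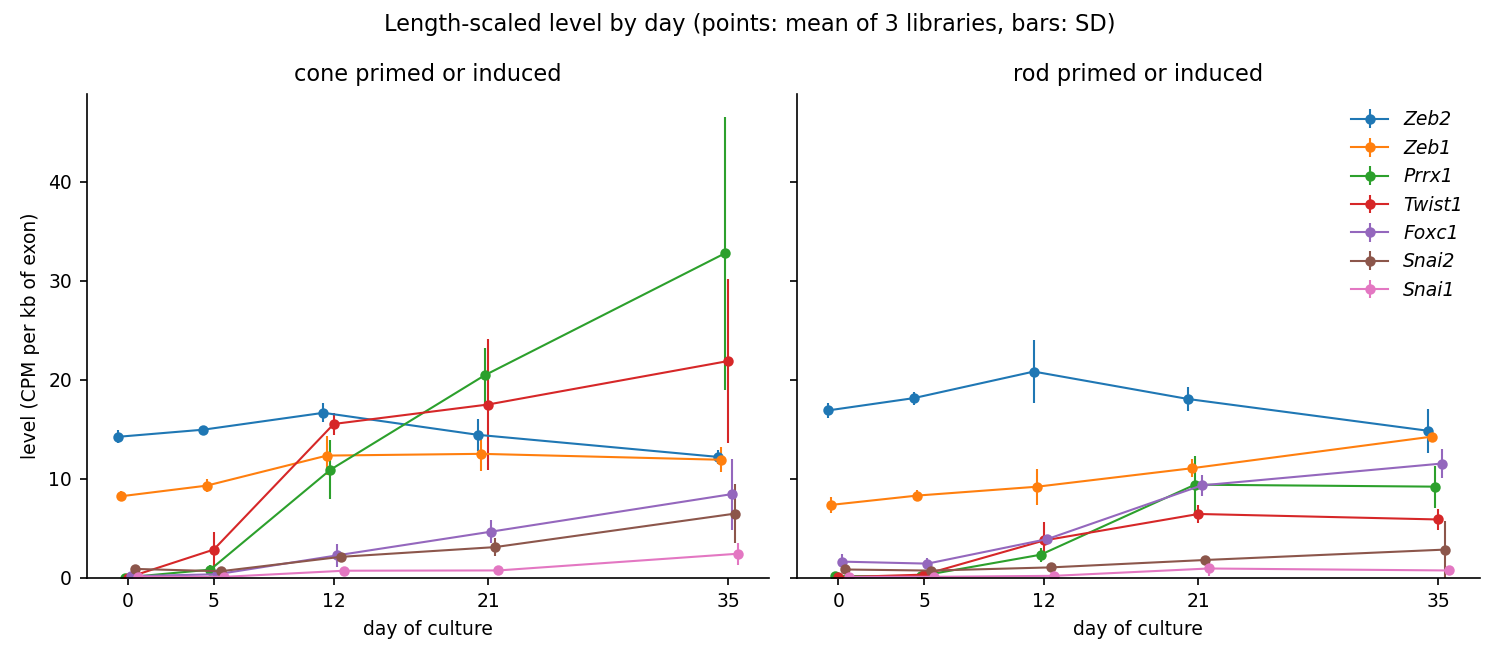
Mean level per kb of exon (CPM per kb) against day of culture for 7 of the genes, in cone cells (left) and rod cells (right); points are means of 3 libraries and bars are SDs, and Twist2 and Foxc2, all under 0.5, are not drawn. On this scale Prrx1 and Twist1 pass Zeb2 and Zeb1 by day 35 in cone cells, at 32.8 and 21.9. They remain below them in rod cells, at 9.21 and 5.89. The lengths join all annotated exons of a gene, and the place of Twist1 depends on them.

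Foxc1, a forkhead factor of periocular mesenchyme needed for the front of the eye, was the one gene of the 9 called between the primed groups. The untreated replicates held 2.30, 0.467 and 2.24 CPM of Foxc1, and the cone primed replicates 1.13, 1.21 and 0.629 CPM. The rod primed replicates held 9.09, 5.34 and 14.3 CPM. Every rod primed library lay above every untreated and cone primed library. Foxc1 was higher in rod primed than in untreated cells by 2.59 ± 0.47 (adjusted p = 0.000539) and lower in cone primed than in rod primed cells by a log2 fold change of -3.25 ± 0.52 (adjusted p = 0.000146).

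Markers of the retinal pigment epithelium, the pigmented layer beside the retina, summed to 42.9 to 84.8 CPM in rod primed, 10.8 to 18.4 in untreated and 13.7 to 23.4 in cone primed libraries. Of these, Ttr, Lrat and Rlbp1, the last also on the Muller glia list, were called lower in cone primed than in rod primed cells. Otx1 was not called, and Rpe65 and Best1 were not among the genes tested. Markers on other lists were also called lower, among them Dkk3 (-1.63), Slc1a3 (-1.15) and Vim (-1.02) of Muller glia and Pax2 (-3.61) of astrocytes. Glul and Sox9 of the Muller glia list were not called, and Mitf of the neural crest glia and melanocyte list was higher (1.42). Of the retinal progenitor list, Hes1 (-1.76), Sfrp2 (-1.93) and Lhx2 (-1.06) were called lower. Pax6 (0.52) and Hes5 (1.59) of that list were called higher, and its other members were not called. The part of these cells in the Foxc1 result was not tested. Without rod primed replicate 3, the highest in Foxc1, the Foxc1 differences were 2.16 from untreated cells (adjusted p = 0.0102) and -2.82 between the primed groups (0.00244).

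At day 5 the rod replicates held 12.0, 5.22 and 7.92 CPM of Foxc1, not called against rod primed cells, against 2.20, 1.64 and 2.44 CPM in cone cells. At day 12 the cone replicates held 21.1, 9.86 and 8.81 CPM and the rod replicates 24.6, 21.6 and 22.5 CPM. The groups did not overlap at either day, with rod cells the higher. At day 21 the cone replicates held 32.8, 20.0 and 29.0 CPM and the rod replicates 53.1, 61.5 and 49.0 CPM, again apart. At day 35 they held 66.2, 25.8 and 56.1 CPM against 74.9, 69.5 and 57.9 CPM, and the groups overlapped. Foxc1 was called lower in cone cells at day 5 (-1.97 ± 0.43, adjusted p = 0.00366), and the difference was -0.81 ± 0.37 at day 12 (adjusted p = 0.189), -1.0 ± 0.36 at day 21 (0.0829, but 0.00452 by voom, 0.0137 with only the compared libraries fitted and 0.0258 with a replicate block) and -0.45 ± 0.35 at day 35 (0.477). Against their own primed cells, cone cells at day 35 were 5.61 ± 0.50 higher in Foxc1 and rod cells 2.81 ± 0.39 higher, from starting levels that differed as given.

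Foxc2, the close relative of Foxc1, stayed low. Its 3 libraries per group gave totals of 0 counts untreated, 1 cone primed and 2 rod primed. At day 35 the cone replicates held 0.597, 0.773 and 0.161 CPM and the rod replicates 0.850, 1.46 and 1.36 CPM. All 3 rod libraries lay above all 3 cone libraries, and the difference of -1.25 ± 0.60 was not called (adjusted p = 0.191), but was by voom (0.0178). As a ratio of summed counts scaled to library size, rod day 35 over rod primed was 17.6 for Foxc2 (95% exact binomial interval 4.61 to 149), and cone day 35 over cone primed was 15.0 (2.37 to 626), intervals that cover counting error only.

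Prrx1, a paired-related homeobox factor of limb and craniofacial mesenchyme, had the largest fitted rise of the 9 in cone cells. Untreated replicates held 0.384, 0 and 0.136 CPM, cone primed replicates 0.252, 0.728 and 0 CPM, and rod primed replicates 0.543, 1.01 and 4.22 CPM. At day 5 the cone replicates held 7.02, 5.17 and 15.3 CPM and the rod replicates 4.04, 0.786 and 1.53 CPM. At day 12 these were 158, 95.7 and 108 CPM against 30.0, 16.6 and 30.9 CPM. From day 5 on, every cone library held more Prrx1 than every rod library of the same day. At day 21 the cone replicates held 244, 191 and 244 CPM and the rod replicates 73.3, 136 and 103 CPM. At day 35 they held 460, 186 and 441 CPM against 78.9, 126 and 101 CPM, with cone replicate 2 far below the other two cone libraries.

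The cone minus rod difference of Prrx1 was 2.24 ± 0.56 at day 5 (adjusted p = 0.0107), 2.22 ± 0.44 at day 12 (0.00117), 1.12 ± 0.42 at day 21 (0.0936, but 0.00085 by voom and 0.0200 with only the compared libraries fitted) and 1.83 ± 0.42 at day 35 (0.00415). Leaving out cone day 35 replicate 2 gave a day 35 difference of 2.13 (adjusted p = 0.00173). The day 5 call was lost without cone replicate 3 (adjusted p = 0.0899), rod replicate 2 (0.0740) or rod replicate 3 (0.0592), and by voom (0.0621). Against primed cells, Prrx1 rose by 9.92 ± 0.72 in cone cells at day 35 and by 5.61 ± 0.57 in rod cells. The size of the cone rise rests on 11 counts in total in cone primed cells. Without rod primed replicate 3 the rod rise was 6.97.

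Prrx1 was also called higher in rod primed than in untreated cells (3.85 ± 1.14, adjusted p = 0.0297), a call that rested on rod primed replicate 3 with 47 counts beside 4 and 10 in the other replicates. Without that library the difference was 2.49 (adjusted p = 0.380), and the call was also lost without untreated replicate 2 (0.128) or 3 (0.0932) and by voom (0.203). The same library held 104 CPM of 10 summed mesenchyme markers, against 15.8 to 23.7 CPM in the other rod primed libraries. The part of this difference in the Prrx1 result was not tested.

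**Figure D2:**
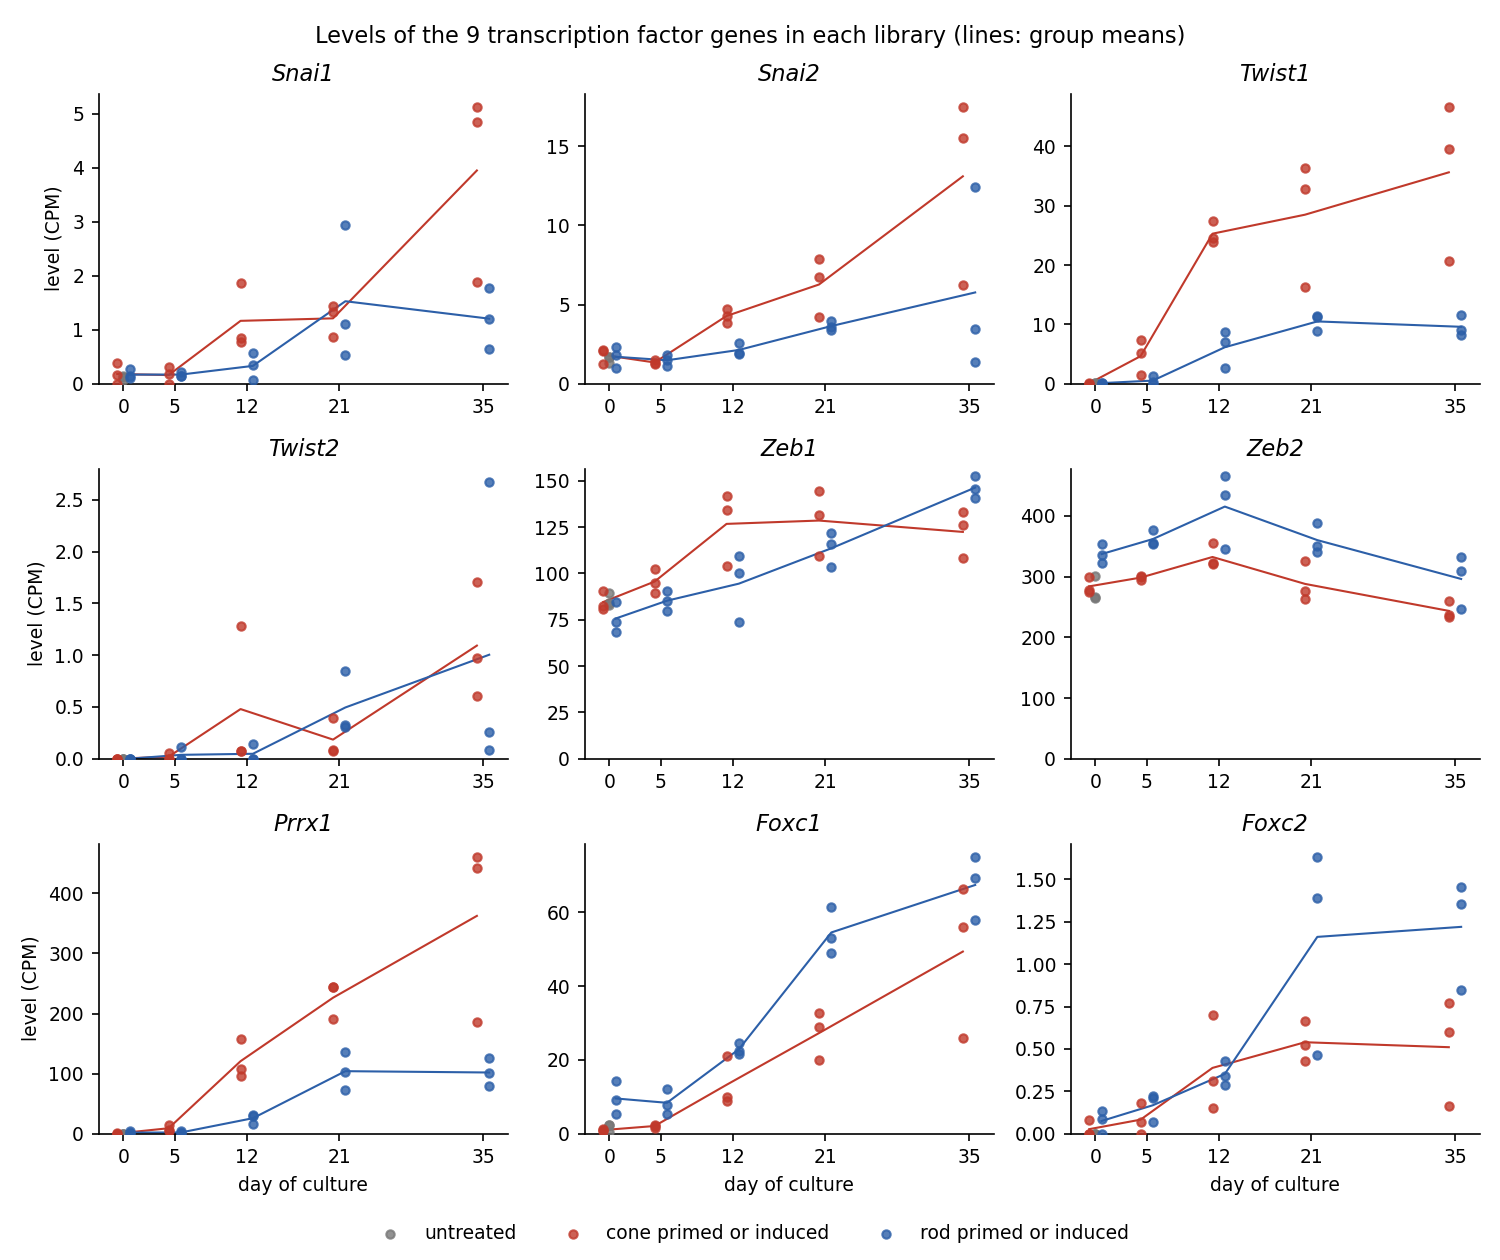
CPM of each of the 9 genes against day of culture; each point is 1 library, lines join the means of 3 libraries, and each panel has its own linear axis from 0. Prrx1 and Twist1 are higher in cone (red) than in rod (blue) libraries from day 5, Foxc1 and Zeb2 have higher rod means at every day, and cone day 35 replicate 2 is the low point for Prrx1 (186 CPM) and Foxc1 (25.8 CPM).

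Twist1, a basic helix-loop-helix factor that pairs with E proteins, was called higher in cone than in rod cells at every day from day 5. At day 0 its 3 libraries per group gave 2 counts in total untreated, 2 cone primed and 3 rod primed. At day 5 the cone replicates held 5.14, 1.46 and 7.32 CPM and the rod replicates 1.24, 0 and 0.347 CPM. At day 12 they held 24.5, 27.4 and 24.0 CPM against 8.71, 2.73 and 6.99 CPM. The cone and rod libraries did not overlap at either day. At day 21 the cone replicates held 36.3, 16.3 and 32.9 CPM and the rod replicates 11.3, 11.4 and 8.87 CPM. At day 35 they held 46.6, 20.7 and 39.6 CPM against 8.24, 11.6 and 8.97 CPM. Within each culture, the Twist1 libraries of days 21 and 35 overlapped.

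Twist1 was called higher in cone cells at all 4 later days, by 3.35 ± 0.67 at day 5 (adjusted p = 0.00159), 2.04 ± 0.47 at day 12 (0.00501), 1.44 ± 0.46 at day 21 (0.0472) and 1.89 ± 0.46 at day 35 (0.00663). The day 21 call was lost without any of 5 of its 6 libraries, cone replicates 1 and 3 and each rod replicate (adjusted p 0.0887 to 0.163), and with a filter at a mean of 1 CPM (0.0502). The day 12 difference had an adjusted p of 0.0545 when only the compared libraries were fitted. Rod day 12 replicate 2, the lowest in Twist1, held 1035 CPM of summed photoreceptor markers against 75.8 and 152 CPM in the other replicates. Without it the Twist1 difference at day 12 was 1.68 (adjusted p = 0.0317). As ratios of summed counts, Twist1 at day 35 stood 534 times above cone primed cells (95% exact binomial interval 147 to 4411) and 90.7 times above rod primed cells (30.8 to 442), counting error only.

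Twist2, the relative of Twist1 known from skin and bone mesenchyme, had 0 counts in every untreated, cone primed and rod primed library. At day 35 the cone replicates held 1.71, 0.601 and 0.968 CPM and the rod replicates 0.0850, 2.67 and 0.258 CPM, overlapping groups with rod replicate 2 apart. The mean Twist2 level of cone cells at day 35 was 10.9-fold above a floor of 3 counts over the primed group. This fold leaves out the spread of the cone libraries, from 0.601 to 1.71 CPM. In rod cells 33 of the 38 counts at day 35 lay in replicate 2, so no fold is given. The rod call (adjusted p = 0.00828) was lost without rod day 35 replicate 2 (0.114). At day 21 the rod call (0.0381) was lost without any 1 of the primed libraries (0.0727 to 0.0912) or rod day 21 replicate 2.

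Snai1, a zinc finger repressor of E-cadherin, held 4 to 5 counts in total in each day 0 group. At day 35 the cone replicates held 5.12, 1.89 and 4.84 CPM and the rod replicates 1.19, 1.78 and 0.646 CPM. No rod library reached the lowest cone library, and the difference of 1.72 ± 0.59 was just outside the threshold (adjusted p = 0.0571). It was inside it without cone day 35 replicate 2 (2.04, adjusted p = 0.0355), by voom (0.00693) and by DESeq2 (0.0495). At day 21 the order was the other way, with 1.44, 0.856 and 1.33 CPM in cone and 0.540, 2.93 and 1.11 CPM in rod libraries, which overlapped. Against primed cells Snai1 rose by 4.46 ± 0.78 in cone and by 2.71 ± 0.82 in rod cells at day 35.

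Snai2, the Slug factor of neural crest, was present in all 33 libraries. It held 1.66, 1.33 and 1.70 CPM in untreated cells and stayed between 1.01 and 2.31 CPM in every primed and day 5 library. At day 12 the cone replicates held 3.85, 4.27 and 4.72 CPM and the rod replicates 1.93, 2.59 and 1.87 CPM. At day 35 the cone replicates held 15.5, 6.27 and 17.5 CPM and the rod replicates 1.36, 12.5 and 3.49 CPM. The groups were apart at day 12 and overlapped at day 35, where rod replicate 2 stood high and cone replicate 2 low. The day 35 difference was 1.19 ± 0.44 (adjusted p = 0.0834), 2.41 without rod replicate 2 (0.000237) and 1.51 without cone replicate 2 (0.0328), and it was called by voom (0.00114). Against primed cells, Snai2 rose by 2.82 ± 0.49 in cone cells at day 35. Its rise of 1.77 ± 0.50 in rod cells (adjusted p = 0.00395) was 0.54 without rod replicate 2 (0.282) and had an adjusted p of 0.0811 when only the compared libraries were fitted. Rod day 35 replicate 2 held 911 CPM of summed mesenchyme markers, against 347 and 407 CPM in the other replicates, and the part of this in the Snai2 and Twist2 levels was not tested.

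Zeb1 and Zeb2, zinc finger and homeodomain repressors, moved within a narrow range. Zeb1 held 83.9, 82.9 and 89.2 CPM in untreated cells. At day 35 the cone replicates held 133, 108 and 126 CPM and the rod replicates 146, 152 and 141 CPM, with every rod library above every cone library. Zeb1 rose against primed cells by 0.53 ± 0.13 in cone cells (adjusted p = 0.000876) and by 0.95 ± 0.13 in rod cells (6.46e-07) at day 35. The rise was already 0.58 ± 0.13 at day 12 in cone cells (0.0005) and 0.32 ± 0.13 in rod cells (0.0469). Cone exceeded rod in Zeb1 only at day 12 by this test (0.42 ± 0.13, adjusted p = 0.0328), a call lost without cone replicate 1 (0.160) or 3 (0.158), without rod replicate 2 (0.246) or 3 (0.0594), without a filter (0.0597) and with only the compared libraries fitted (0.323). The rod rise at day 12 was lost without any of 4 of its 6 libraries, rod primed replicates 1 and 2 and rod day 12 replicates 1 and 3 (adjusted p 0.126 to 0.302). With all libraries it was also lost under RLE scaling (0.0560), DESeq2 (0.0541), no filter (0.125) and a fit of only the compared libraries (0.158).

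Zeb2, which also acts in neural crest and in the neurons of the retina, was the one gene of the 9 not called against primed cells at day 35 in either culture, although in cone cells it was lower by DESeq2 (adjusted p = 0.0461) and voom (0.0150). It held 264, 267 and 302 CPM in untreated, 274, 299 and 279 CPM in cone primed and 323, 335 and 353 CPM in rod primed cells. The highest values were at day 12, with 355, 322 and 320 CPM in cone and 466, 345 and 434 CPM in rod libraries. At day 35 the cone replicates held 234, 259 and 238 CPM and the rod replicates 309, 247 and 332 CPM. The rod mean was the higher at every day, and the libraries were apart at days 0, 5 and 21. The cone minus rod difference lay between -0.25 and -0.32 at each of the 5 days and was not called at any single day (adjusted p 0.0522 to 0.173). Other tools did call it: at days 12 and 21 with RLE scaling (0.0495 and 0.0494) and DESeq2 (0.0254 and 0.0251), and at all 5 days by voom (0.00105 to 0.0229).

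**Figure D3:**
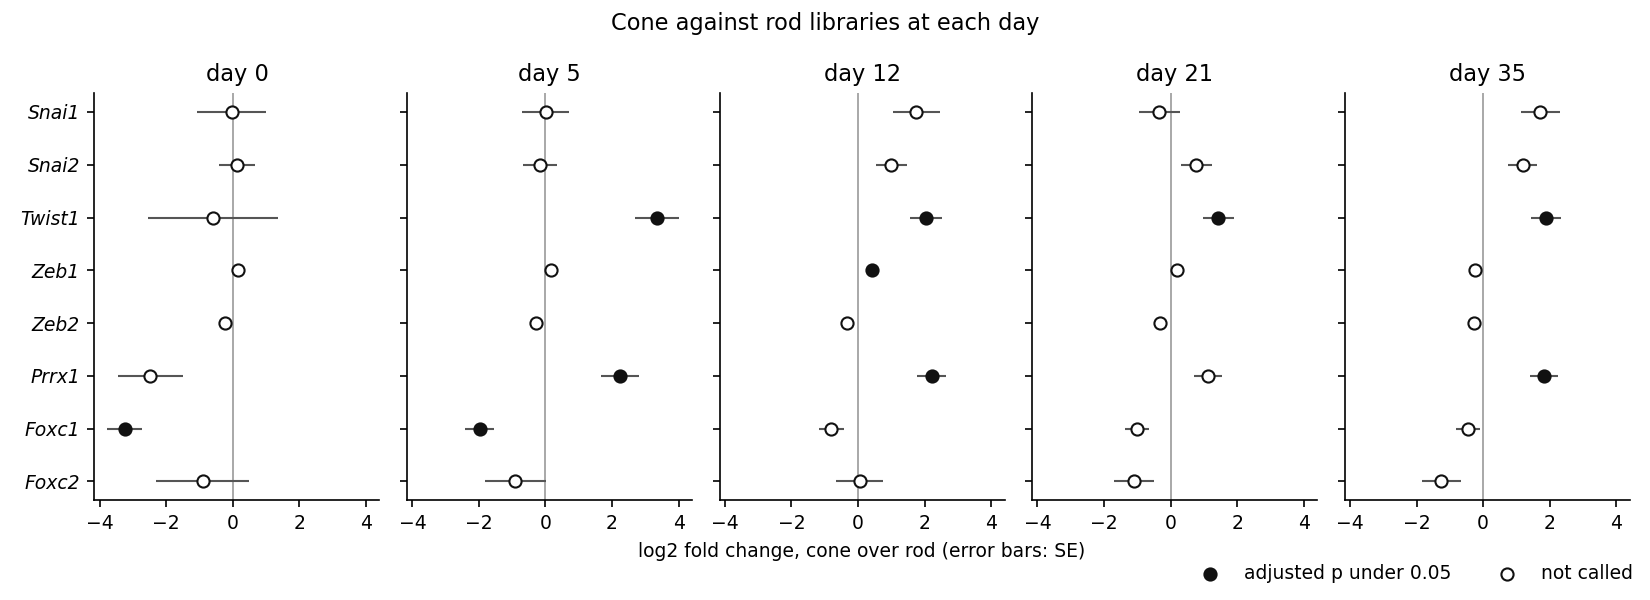
Log2 fold change of cone over rod cells with its SE for 8 of the genes at each day; filled points have an adjusted p under 0.05, and Twist2, at 0 in every primed library, is not drawn. Twist1 and Prrx1 lie to the right from day 5 to day 35, Foxc1 and Zeb2 lie to the left at every day, and Foxc1 moves from -3.25 at day 0 to -0.45 at day 35.

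Counted over the 9 genes, cone primed and untreated cells differed in 0, with 0 at an unadjusted p under 0.05 and 0 by DESeq2 or voom, where 0% of all genes tested were called. Rod primed cells were higher in 2, Prrx1 and Foxc1, where 10.3% of all genes were called and 6.71% called higher. Between the primed groups 1 gene, Foxc1, was lower in cone primed cells, where 7.27% of all genes were called and 4.77% called lower. Other tools also called Zeb2 between rod primed and untreated cells (DESeq2 0.0368, voom 0.0188) and Prrx1 between the primed groups (DESeq2 0.0214). At day 5, Twist1 and Prrx1 were higher and Foxc1 lower in cone cells, 3 of 9, where 9.28% of all genes were called, 3.48% higher and 5.80% lower. At day 12 the 3 genes called, Twist1, Zeb1 and Prrx1, were all higher in cone cells, where 10.1% were called and 5.98% called higher. At day 21 Twist1 alone was called, where 9.00% of all genes were called and 5.86% called higher. At day 35 Twist1 and Prrx1 were called higher, where 12.3% were called and 7.77% called higher.

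Over the mean of days 5 to 35, 5 of the 9 genes were called, where 27.8% of all genes were called. Snai2, Twist1 and Prrx1 were higher in cone cells, where 15.6% of all genes were, and Zeb2 and Foxc1 were lower, where 12.2% were. The differences were 2.18 ± 0.26 for Twist1 (adjusted p = 3.4e-07), 1.85 ± 0.23 for Prrx1 (6.35e-07), -1.06 ± 0.19 for Foxc1 (0.000122), -0.30 ± 0.05 for Zeb2 (9.11e-05) and 0.70 ± 0.24 for Snai2 (0.0283). The Snai2 call was lost with only the compared libraries fitted (0.0541) and without any 1 of 5 libraries: cone day 5 replicate 1, cone day 21 replicate 1, cone day 35 replicate 3, rod day 5 replicate 1 or rod day 35 replicate 3 (adjusted p 0.0503 to 0.0606). Snai1 (0.78 ± 0.37), Zeb1 (0.13 ± 0.06), Foxc2 (-0.80 ± 0.36) and Twist2 (0.30 ± 0.97) were not called, although voom called Foxc2 (0.0118) and Zeb1 (0.0485). An F test on 4 degrees of freedom called a change of the cone minus rod difference with day in Prrx1 (adjusted p = 0.0265) and Foxc1 (0.0236), 2 of 9, where 9.22% of all genes were called. Both calls were lost without rod primed replicate 3 (0.245 and 0.0718), without cone primed replicate 1 (0.0610 and 0.0501) or 3 (0.0729 and 0.0771) and by voom (0.103 and 0.0565).

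Against primed cells every called gene was higher. Cone cells had 2 of the 9 at day 5 (Twist1 and Prrx1), where 22.3% of all genes were called and 12.2% called higher. They had 7 at day 12, all but Twist2 and Zeb2, where 48.4% were called and 26.7% called higher, and the same 7 at day 21, where the shares were 52.6% and 29.4%. At day 35 they had 8, all but Zeb2, where 57.7% were called and 31.1% called higher. Rod cells had 0 at day 5, with 0 at an unadjusted p under 0.05 and 0 by DESeq2 or voom, where 17.5% of all genes were called. They had 5 at day 12 (Twist1, Zeb1, Zeb2, Prrx1 and Foxc1), where 42.4% were called and 24.2% called higher. They had 7 at day 21, all but Snai2 and Zeb2, where 50.8% were called and 27.2% called higher, and 8 at day 35, all but Zeb2, where 55.6% were called and 29.4% called higher. Twist1, Twist2, Prrx1, Snai1 and Foxc2 were so low at day 0 that they passed the filter only through later groups, so these counts describe the 9 genes and are no support for a pattern. The call of Snai2 in cone cells at day 12 (adjusted p = 0.0456) was lost without any 1 of its 6 libraries (0.0602 to 0.156), by voom (0.0692), without a filter (0.0583) and with a replicate block (0.0531). At day 12, those of Snai1 and Foxc2 in cone cells were each lost without cone primed replicate 3 (0.0572 and 0.0722) or cone day 12 replicate 1 (0.05 and 0.0884), and that of Foxc2 also without cone primed replicate 1 (0.0597). In rod cells at day 12, the call of Zeb2 (0.0239) was lost without 4 of its 6 libraries, rod primed replicates 1 and 2 and rod day 12 replicates 1 and 3 (0.0627 to 0.176), without a filter (0.0837) and with only the compared libraries fitted (0.0960), and that of Foxc1 (0.0101) without rod primed replicate 2 (0.0742).

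Across the 11 group means of log2 CPM, the 28 pairs of genes that leave out Zeb2 had Pearson correlations of 0.68 to 0.98, and the 8 pairs with Zeb2 had -0.44 to 0.17. These points share the day of culture, along which many genes of the tables moved, and the values are a description. The highest pair was Twist1 with Prrx1 (0.98). Among 11911 other genes, those most like Twist1 were Lox (0.995), a collagen crosslinking enzyme, and Thbs1 (0.994), a matrix glycoprotein. Those most like Prrx1 were Bag3 (0.995), a cochaperone, and Tgfbr2 (0.995), a TGF-beta receptor. Tmem64 (0.988) and Dkk3 (0.987), the latter also on the list of Muller glia markers, were most like Foxc1. Snai1 was most like Mdm2 (0.987) and Vmp1 (0.986), Snai2 most like Dap (0.983) and Pdrg1 (0.980), and Zeb1 most like Pknox2 (0.955) and Zbtb38 (0.955). Zeb2 had the lowest best matches, Celsr1 (0.917) and Neurl1b (0.911). For the low genes these were Sipa1l2 (0.982) and Tshz2 (0.977) with Foxc2, and Rheb (0.972) and Fbxo33 (0.962) with Twist2.

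Genes that work with or below the 9 were described from 4 lists. Of 12 genes known to rise in epithelial to mesenchymal transition, all 12 were higher at day 35 than in primed cells in cone cultures (median log2 fold change 5.34, against 0.03 over all genes tested) and 10 in rod cultures (4.43, against 0.04), where 31.1% and 29.4% of all genes were called higher. Over the mean of days 5 to 35, 7 were higher in cone than in rod cells and 0 lower (median 0.98, against 0.01), where 15.6% of all genes were called higher and 12.2% lower. Lox had the smallest p of the list, with 2.56 ± 0.18 (adjusted p = 3.67e-11), at 271 ± 60.3 CPM (SD, n = 3) in cone and 72.4 ± 39.8 in rod cells at day 35.

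The listed epithelial junction genes and their activators were mostly too low to test, with 6 of 17 tested. Cdh1 was higher in cone than in rod cells over the mean of days (2.23 ± 0.26, adjusted p = 1.84e-07), at 6.51 ± 2.04 CPM in cone and 1.68 ± 0.741 in rod cells at day 12. At day 35 Cdh1 stood at 1.85 ± 0.438 CPM in cone cells, against 2.57 ± 0.708 in cone primed cells, and at 0.0646 ± 0.112 in rod cells (3 counts in total), against 2.59 ± 0.140 in rod primed cells. Against primed cells, Cdh1 was called lower in rod cells (adjusted p = 4.2e-07), and the cone difference of -0.48 ± 0.44 was not called (0.364). The day 35 means of Snai1, Snai2 and Twist1 were higher in cone cells, and those of Zeb1 (146 against 122 CPM) and Zeb2 (296 against 244 CPM) were higher in rod cells. Of these genes only Twist1 was called between the cultures at day 35 by edgeR's test. The part of any of them in the Cdh1 levels was not tested. Krt18, an epithelial keratin, was also called higher in cone cells when days were averaged (adjusted p = 0.0056), with means at or under 0.972 CPM and 1 and 2 counts in total in rod cells at days 21 and 35.

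Of 8 partners and corepressors of the 9 genes, all 8 were tested and 2 were lower with 0 higher in cone cells when days 5 to 35 were averaged (median -0.13, against 0.01), beside 12.2% lower and 15.6% higher of all genes. Both are Id proteins, which bind E proteins and keep them from pairing with Twist. Id2 was lower by -1.13 ± 0.13 (adjusted p = 1.22e-07), at 16.3 ± 1.51 CPM in cone and 67.7 ± 9.33 in rod cells at day 5, and Id3 by -0.54 ± 0.16 (0.0118). The E proteins Tcf3 (-0.13 ± 0.06), Tcf4 (0.12 ± 0.07) and Tcf12 (0.03 ± 0.05) were not called.

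Of 23 other mesenchyme and neural crest transcription factors, 15 were tested. At day 35, 11 were higher than in primed cells in each culture and 0 lower (medians 5.32 in cone and 3.27 in rod cells), beside 31.1% and 29.4% of all genes called higher. Between the cultures, averaging days 5 to 35, 3 were higher and 4 lower in cone cells (median 0.28, against 0.01), beside 15.6% and 12.2% of all genes. The smallest p-values belonged to genes lower in cone cells. Foxf1, a forkhead factor of mesoderm, differed by -2.50 ± 0.30 (adjusted p = 7.8e-07), at 2.07 ± 1.01 CPM in cone and 7.06 ± 2.59 in rod cells at day 35. Foxd1, known from retina and stroma, differed by -1.87 ± 0.24 (adjusted p = 1.14e-06), at 0.921 ± 0.282 against 3.49 ± 1.69 CPM.

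Markers of some other cell types also changed over the culture. The 10 mesenchyme markers, which include collagens and Pdgfra, summed to 4.55 to 28.0 CPM in untreated and 7.02 to 15.7 CPM in cone primed libraries, with Dcn at 0 in cone primed and Fap at 0 in rod primed cells. At day 35 they summed to 614 to 4484 CPM in cone and 347 to 911 CPM in rod libraries, with none at 0. Of the 10, 10 and 9 were called higher than in primed cells, where 31.1% and 29.4% of all genes were. Between the cultures the list was mixed. At day 12, Col1a1 (3.96), Col1a2 (3.21) and Pdgfrb (2.04) were called higher in cone cells. Postn (-2.97) and Pdgfra (-2.33) were called lower that day, and the others were not called. At day 35 no marker was called lower in cone cells, and Pdgfra was not called (0.40). Cone day 35 replicate 2, low in Prrx1, Twist1, Foxc1, Snai1 and Snai2, held the 614 CPM, against 3408 and 4484 CPM in the other replicates. Its 1826 CPM of pericyte and smooth muscle markers lay between the 1490 and 2016 CPM of the others. Those 8 markers summed to 2.05 to 2.99 CPM in untreated cells, and Kcnj8 was at 0 in most groups. Of the microglia and macrophage markers, summed levels at day 35 were 63.0 to 146 CPM in cone and 36.5 to 37.9 CPM in rod cells. The endothelial markers Tie1 and Erg and the neural crest glia markers Sox10 and Foxd3 were at 0 in several groups. The part of these cells in the results for the 9 genes was not tested.

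**Figure D4:**
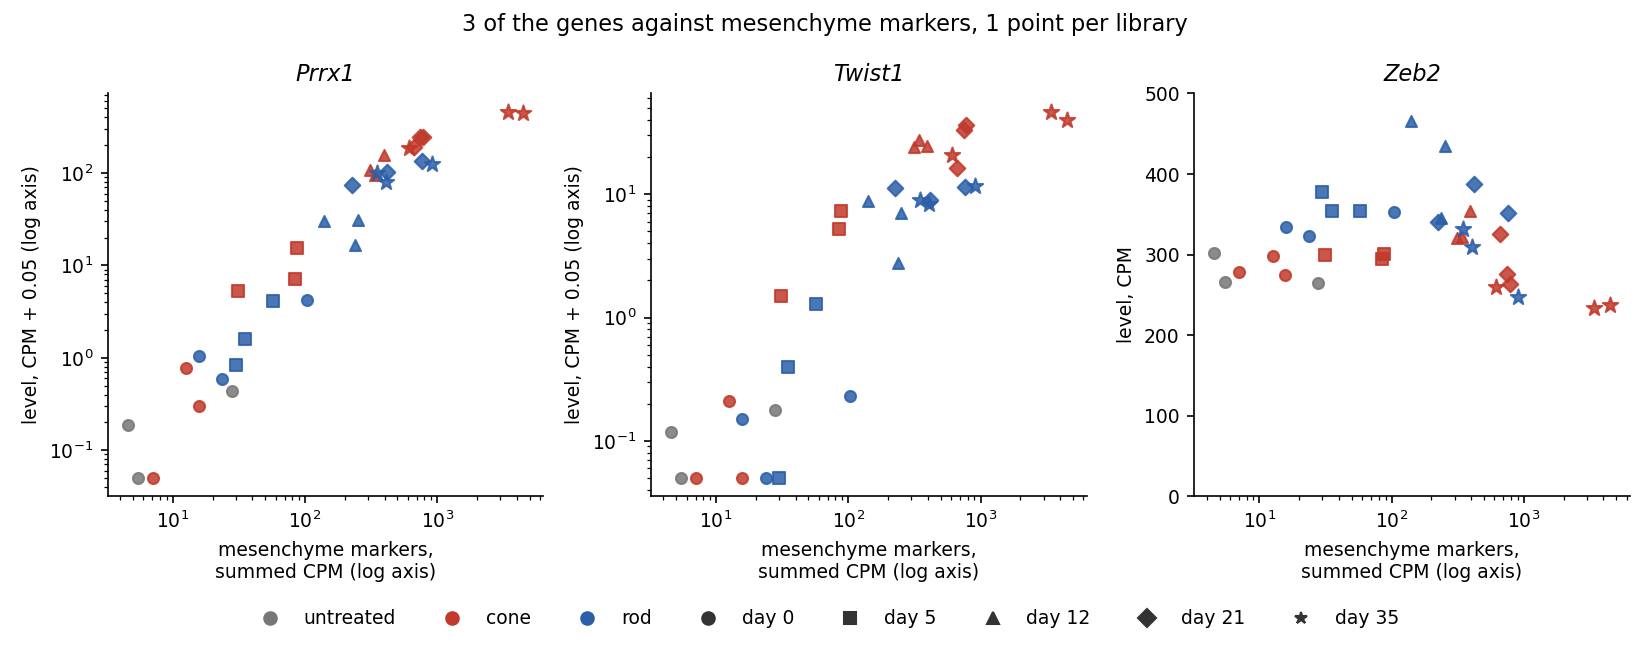
Level of Prrx1, Twist1 and Zeb2 in each of the 33 libraries against the summed CPM of 10 mesenchyme markers (log axis); Prrx1 and Twist1 are drawn as CPM + 0.05 on a log axis and Zeb2 as CPM on a linear axis. Prrx1 and Twist1 are low in the day 0 libraries, which have little mesenchyme marker RNA. Cone day 12 libraries (312 to 394 CPM of markers) hold 24.0 to 27.4 CPM of Twist1 and 95.7 to 158 CPM of Prrx1. Rod day 35 libraries (347 to 911 CPM of markers) hold 8.24 to 11.6 CPM of Twist1 and 78.9 to 126 CPM of Prrx1, which overlaps. The sum joins markers that differed in opposite directions between the cultures at day 12. The part of mesenchyme cells in these levels was not tested. Zeb2 stays between 234 and 466 CPM.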

How the data were processed

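Per the file headers, the deposited tables give for each library a whole-number read count per gene and, in a separate table, TPM, FPKM and coverage (a per-base signal). HISAT2, StringTie, HTSeq and GRCm38 are named in the submitters' processing notes, without versions or roles, and RNA and libraries were made with Takara low-input kits, per the labels. Only counts were used for levels and tests. The TPM, FPKM and coverage deposited by the authors were checked and not used, because several of the 9 genes are listed at TPM 0 in libraries where they have counts. Lines for unassigned reads were left out of library sizes. Replicate libraries differed beyond sampling noise in every group (chi-square per degree of freedom at least 7.80).

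Genes were filtered with filterByExpr by group at a minimum count of 10, scaled by TMM and fitted in 1 quasi-likelihood model over all 33 libraries (edgeR 4.0.16, limma 3.58.1, R 4.3.3), with p-values adjusted over the 18150 genes tested in each of 17 comparisons. The common biological coefficient of variation was 0.213. Exon lengths came from GENCODE M21, and promoters from RefSeq. Floors and intervals cover counting error only, since reads carry no molecular identifiers. Tables and figures used Python 3.11.15, numpy 2.4.6, pandas 2.3.3 and matplotlib 3.10.9. The steps were tested on simulated data.

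The 9 genes, the 4 lists of related genes and the marker lists were chosen with earlier results of these data known. All 9 genes are named. So are, for each, the 2 genes of highest Pearson correlation over the 11 group means (mean log2 CPM of at least 1, leaving out symbols of Gm or Rik form), and from each related list the 2 genes of smallest p over the mean of days; 1 gene of these lists is not reported here. Alternatives were RLE scaling, no filter, DESeq2 1.42.0, a minimum mean of 1 CPM, a replicate block, voom with quality weights, only the compared libraries, and leaving out each library.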

Additional observations from a re-analysis of the deposited data

Results flagged for a closer look

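For Prrx1 and Foxc1 the cone minus rod difference was called as changing with day. The F test of that change gave an adjusted p of 0.0265 for Prrx1 and 0.0236 for Foxc1 (edgeR's quasi-likelihood test). Prrx1 went from -2.48 ± 0.99 at day 0, where cone primed and rod primed libraries overlapped, to 2.24 ± 0.56 at day 5 and 1.83 ± 0.42 at day 35. Foxc1 went from -3.25 ± 0.52 at day 0 to -0.45 ± 0.35 at day 35, with cone means below rod means throughout. Both calls were lost by voom (0.103 and 0.0565), without rod primed replicate 3 (0.245 and 0.0718) and without cone primed replicate 1 (0.0610 and 0.0501) or 3 (0.0729 and 0.0771).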

How the results depend on the processing

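Of 63 called results for the 9 genes, 46 kept their call under every alternative that tested them and 0 reversed. Of 90 uncalled results, 24 passed the threshold under some alternative, 20 of them by voom. Counts of genes called that moved by over 1.5 times were: with only the compared libraries, 1 for rod primed against untreated, 1 for cone against rod at day 12, 3 at day 21, and 3 and 4 for rod days 12 and 35 against primed; by voom, 2, 5, 4 and 6 for cone against rod at days 0, 12, 21 and 35, and 1 for the change with day; by DESeq2, 2 at day 0 and 2 at day 21; by RLE scaling, 2 at day 21; without a filter, 3 for rod day 12. With a filter at a mean of 1 CPM, which leaves fewer of the genes to test, rod days 21 and 35 had 4 and 5. The number called over all genes moved too. By voom it was 3200, 4146, 3699 and 2827 for cone against rod at days 0, 12, 21 and 35. The unaltered fit called 1320, 1833, 1633 and 2229. For the change with day, voom called 4758 and the unaltered fit 1674. With only the compared libraries, 363 were called at day 12, 1247 at day 21 and 2912 for rod primed against untreated, the last against 1864.

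Leaving out each library in turn gave 1 to 2 for rod primed against untreated, 2 to 3 for cone against rod at days 5 and 12, 0 to 2 at day 21, 2 to 4 at day 35, 4 to 6 for the mean of days and 0 to 3 for the change with day. Against primed cells it gave 4 to 7 and 8 to 9 for cone days 12 and 35, and 2 to 5, 6 to 7 and 6 to 9 for rod days 12, 21 and 35. The other counts did not move. The cause of each change was not tested.

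Samples with the same replicate number did not deviate together in every pair of any comparison. With the replicate block, cone against rod at day 21 had 2 genes called, the call of Snai2 in cone cells at day 12 was lost (adjusted p = 0.0531), and every other called result kept its call. Depth limits what can be seen below 0.174 to 0.407 CPM, the level of 3 counts. Twist2, Foxc2, Twist1 and Snai1 lie at or below that level at day 0, as does Prrx1 in untreated cells and in cone primed replicates 1 and 3.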

Other observations

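Among the other mesenchyme factors, Ets1, an ETS factor of neural crest and endothelium, rose against primed cells at day 35 in both cultures, and it was picked after its values were seen. It stood at 42.5 ± 3.94 CPM (SD, n = 3) in cone and 44.2 ± 17.5 CPM in rod cells, against 1.01 ± 0.417 and 1.46 ± 0.358 CPM in the primed cells (log2 fold changes 5.32 ± 0.44 and 4.88 ± 0.42, edgeR adjusted p = 7.74e-11 and 3.26e-10). Its cone minus rod difference over the mean of days was 0.28 ± 0.17 and was not called (adjusted p = 0.236).

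Epcam, an adhesion molecule of epithelia, fell in both cultures, also noticed after the fact. It went from 1.93 ± 0.388 CPM in cone primed to 0.136 ± 0.167 CPM in cone cells at day 35 (5 counts in total, adjusted p = 0.000259), and from 4.35 ± 0.890 in rod primed to 0.0270 ± 0.0467 CPM in rod cells (1 count, adjusted p = 7.07e-07).

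In the authors' TPM values, Snai1 and Snai2 are listed at 0 in every library in which they have counts, 31 and 33 libraries, with up to 60 and 217 counts. Twist1 is listed at 0 in 27 of 28 such libraries, with up to 546 counts, Twist2 in 17 of 18, Foxc2 in 20 of 26 and Prrx1 in 9 of 31. Zeb1, Zeb2 and Foxc1 have a TPM above 0 in all 33 libraries.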
